A study of Mus musculus with 12 samples.

Results

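Olfactory receptor genes (Olfr) form the largest gene family of the mouse, and the methylated DNA lying nearest to them was examined here in the hippocampus. Methylated DNA was captured with an antibody against 5-methylcytosine and sequenced (MeDIP-Seq), and regions with more captured fragments than an input library are called peaks. A peak belonged to the family when the gene name given to it in the deposited lists was Olfr followed by a number, which is the name of the gene whose start lies closest in RefSeq. In the 8 libraries together, 2067 of 291684 peaks met this rule. Peaks that overlapped by at least 1 bp were merged into 614 regions, of 91177 regions in all.

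The tissue came from male C57BL/6 mice (C57BL/6J in the study's methods) at postnatal day 70, with 2 captured libraries in each of 4 groups. Control pups had dams without ethanol and were left with them. In the Ethanol group, exposure was prenatal, with the dams choosing between water and 10% ethanol during gestation, and the study's methods extend access to ethanol to postnatal day 10. In the Stress group, pups spent 3 h of each day apart from the dam, between postnatal day 2 and day 14, and Ethanol + stress pups had both exposures. Each library was made from 1 mouse, the separated pups shared litters with unseparated ones in the study's design, and each group's libraries were called against the 1 input library of the same group, from a further mouse, so the effects of group and of input cannot be told apart. In such bulk tissue, a larger share of cells methylated at a site and a larger share of methylated sites per cell cannot be told apart either. The peak lists hold no expression values, so the labelled tissue was not checked against its marker genes. The 8 libraries held 22805 to 51747 peaks each, and the number of reads behind them is not given in the sources used here. The p-values below measure the spread between these libraries.

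Odorant receptors are membrane proteins with a coding sequence that usually lies in a single exon, and they stand in clusters on many chromosomes. Each olfactory sensory neuron expresses the receptor of 1 allele, while the rest of the family stays packed in constitutive heterochromatin. Class I receptors, the older branch shared with fish, lie almost all in a single large cluster on chromosome 7, and class II receptors make up the rest. In cells outside the nose most of the family is silent, although a few receptors have been described in other tissues. MeDIP captures a sequence mainly where it holds enough methylated CpG, the CG dinucleotide at which mammalian DNA is methylated. CpG-poor DNA can therefore be methylated and still give no peak.

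The coding sequences differed greatly in how much CpG they offered to the antibody. The following stretches of 240 bases, printed along the coding strand from RefSeq GRCm38 (mm10) with each CpG in capitals, come from a receptor with a peak in all 8 libraries, from a well-studied receptor near the middle of the family, and from the receptor richest in CpG. Olfr281 (chr15:98456502-98456741, plus strand) held 13 CpG in this stretch, Olfr73 (chr2:88034548-88034787, minus strand) held 2, and Olfr94 (chr17:37197267-37197506, minus strand) held 27. Olfr73 and Olfr94 had no peak on the coding sequence in any library.
Olfr281: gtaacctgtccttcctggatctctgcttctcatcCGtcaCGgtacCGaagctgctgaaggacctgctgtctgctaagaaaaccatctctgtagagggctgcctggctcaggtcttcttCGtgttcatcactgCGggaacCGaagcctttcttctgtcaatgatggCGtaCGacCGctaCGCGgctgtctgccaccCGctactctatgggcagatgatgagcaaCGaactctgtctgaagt
Olfr73: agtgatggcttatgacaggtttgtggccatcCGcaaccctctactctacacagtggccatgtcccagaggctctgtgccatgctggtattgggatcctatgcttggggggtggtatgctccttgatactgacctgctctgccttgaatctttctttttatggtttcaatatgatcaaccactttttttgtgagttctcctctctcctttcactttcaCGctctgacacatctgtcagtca
Olfr94: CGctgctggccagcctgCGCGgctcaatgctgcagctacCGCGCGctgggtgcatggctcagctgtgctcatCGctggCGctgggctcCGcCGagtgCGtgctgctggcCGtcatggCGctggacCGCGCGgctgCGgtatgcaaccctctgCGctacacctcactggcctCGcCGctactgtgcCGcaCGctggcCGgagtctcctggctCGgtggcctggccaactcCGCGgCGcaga

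Peaks on receptor coding sequences lay mostly on the CpG-rich ones. Of 1134 protein-coding receptors in GENCODE M21, 43 (3.79%) had a peak over the coding sequence in at least 1 library, 16 in 4 or more libraries and 3 in all 8. The share of all protein-coding genes with a peak over the coding sequence is not given here, so 3.79% has no background to be read against. The 43 held a median of 2.32 CpG per 100 bp (22 sites per gene), against 0.727 (7 sites) in the coding sequences without a peak. When the receptors were ordered by CpG per 100 bp, 37 of the 114 in the highest decile (32.5%) were under a peak, 4 of 113 in the decile below it, and 2 in the other 8 deciles together. CpG content is a property of the reference and not of the mice, so these shares describe where the method gave peaks, and no test was run across genes.

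Many CpG-rich coding sequences had no peak. In the highest decile 77 coding sequences had no peak in any library. Among them were Olfr94 (7.39 CpG per 100 bp, the highest of all), Olfr95 (4.49), Olfr1344 (4.15) and Olfr1349 (4.10), which rank with Olfr281 (4.50) and Olfr282 (3.68). Olfr94 and Olfr95 are on chromosome 17, and Olfr1344 and Olfr1349 are on chromosome 7. Whether these sequences were unmethylated or were missed for another reason was not tested.

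**Figure D1:**
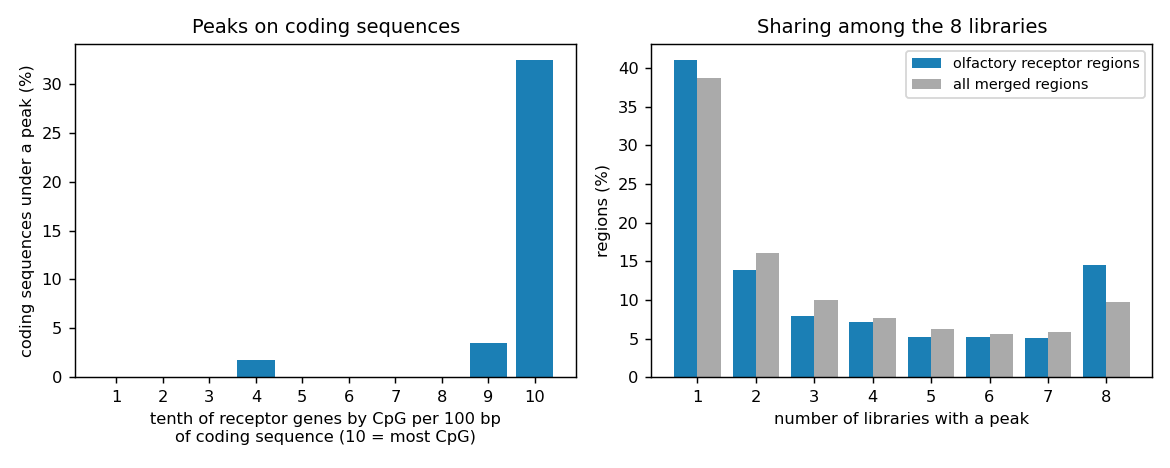
Left, percent of receptor coding sequences under a peak in at least 1 library, by deciles of CpG per 100 bp (10 is the richest). The richest decile stands at 32.5% and 7 of the deciles at 0. Right, percent of merged regions by the number of libraries with a peak, for receptor regions (blue) and all regions (grey), where 14.5% and 9.76% were in all 8.

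The small cluster on chromosome 15 stood out among the coding sequences. It holds 9 protein-coding receptors, with a median of 2.805 CpG per 100 bp of coding sequence, and 6 of them were under a peak. At Olfr281 the fold enrichment, which is the peak caller's ratio of the captured library to the local background, was 22.0 and 25.6 in the Control libraries, 22.4 and 9.23 in Ethanol, 17.6 and 25.5 in Stress, and 25.9 and 19.9 in Ethanol + stress. The second Ethanol library was the low one and the other 7 overlapped. At Olfr283 the peak was present in all 8 libraries with folds of 6.61 to 14.2, again lowest in the second Ethanol library. Olfr282 had a peak in 7 libraries, with folds of 4.995 to 13.6, and lacked one in the second Control library. Outside this cluster, the coding sequences of Olfr523 on chromosome 7 (6 libraries, 8.15 to 17.3) and Olfr764-ps1 on chromosome 10, protein-coding in GENCODE although its name marks a pseudogene, (8 libraries, median fold 10.8) were among those covered most often.

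Most regions, however, lay between the genes. The summit was intergenic at 462 regions (75.2%), in an intron at 75, in a coding exon at 43 (39 of them of a receptor), in an untranslated region at 19 and in a noncoding exon at 15. The summit was within 2000 bp of the start of the receptor named at 71 regions (11.6%), at 2 to 20 kb at 379 (61.7%), at 20 to 100 kb at 113 and beyond 100 kb at 51. The regions within 2000 bp had a median of 13.1% repeat-masked bases, and those at 2 to 20 kb had 91.9%. In that first band 25 lay upstream of the start and 46 downstream, while at 2 to 20 kb the sides held 189 and 190.

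The receptor named was not always the nearest gene. In GENCODE M21 the nearest gene was an olfactory receptor at 450 regions (73.3%) and another gene at 164, and at none of the 51 regions beyond 100 kb was it a receptor. Those 51 regions carried the names of 4 receptors. Olfr1507, known as MOR28, was named at 32 regions spread over chr14:52517272-53035490, at distances of 21.8 to 539 kb, and at 28 of them the nearest GENCODE gene was a variable segment of the T cell receptor alpha locus, which assembles antigen receptor genes in T cells. Olfr161 was named at 17 regions in chr16:3040854-3613389, near the start of the chromosome, and a GENCODE receptor was nearest to 1 of them. These peaks follow the rule of the family by name, and the tested comparisons and the counts of gained, lost and shared regions were also computed without them.

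**Figure D2:**
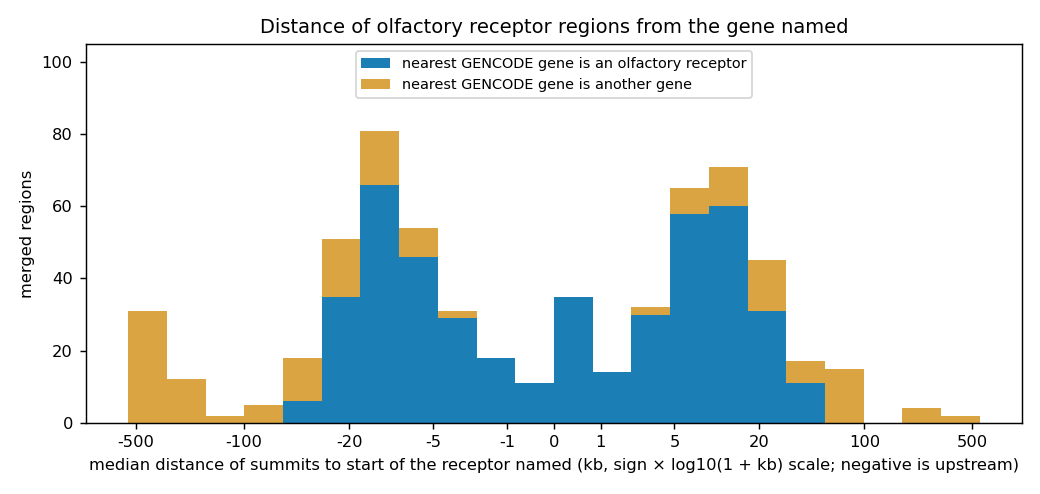
Distribution of the 614 regions by the median distance in kb of their summits from the start of the receptor named, on a signed log scale with upstream negative. Blue bars count regions whose nearest GENCODE gene was an olfactory receptor (450) and yellow bars the other 164, which make up all regions beyond 100 kb.

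Within every library the receptor peaks had more CpG and far more repeat sequence than the other peaks of that library. The median was 3.41 ± 0.151 CpG per 100 bp against 1.54 ± 0.184 (mean ± SD of 8 library medians), higher in 8 of 8 libraries (two-sided exact sign-flip permutation test, p = 0.0078, the smallest 8 libraries can give, adjusted p = 0.0100 over 9 measures by Benjamini-Hochberg). The median share of repeat-masked bases was 94.2% ± 1.17 against 48.4% ± 7.14, also higher in 8 of 8 with the same p, a measure added after the data were seen. G+C, which was not among the measures first planned, was 49.1% ± 0.438 against 47.3% ± 0.561, higher in 8 of 8. CpG, masked bases and G+C are properties of the reference, and the libraries share many of the same regions. The 8 library values therefore partly repeat each other, and these p-values add little to the medians. The width was 601 ± 15.6 bp against 583 ± 12.2 bp, also higher in 8 of 8. The median −log10 q was 26.8 ± 3.08 against 24.3 ± 2.30. The fold enrichment itself differed little, at 8.16 ± 0.704 against 7.74 ± 0.431, higher in 6 of 8 (exact sign-flip permutation test, adjusted p = 0.0313), and equal in the other 2. That call was lost when any of 6 libraries was left out (exact p = 0.0625).

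Receptor peaks also lay closer to a gene start. The summit was within 2000 bp of it in 10.3% ± 1.59 of receptor peaks against 2.70% ± 0.162 of the others, higher in 8 of 8 libraries (exact sign-flip permutation test, adjusted p = 0.0100). Against other peaks with a start within 20 kb the difference was 0.0557 percentage points and no longer passed. A coding exon held 6.69% ± 2.13 of the summits against 4.78% ± 0.785 (7 of 8 libraries, exact adjusted p = 0.0176), and against other peaks within 20 kb of a start the sign turned, at −3.97 percentage points.

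**Figure D3:**
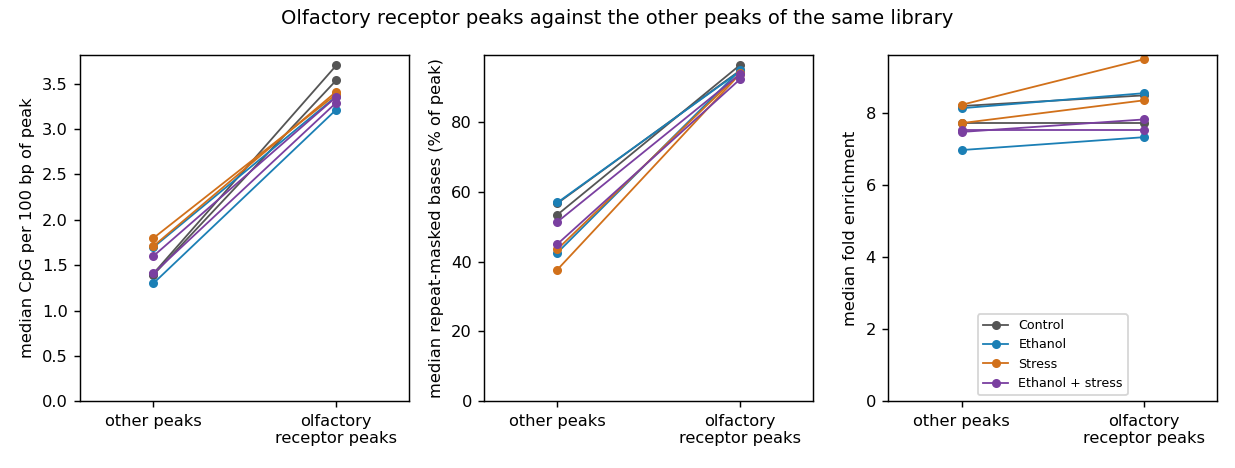
Median CpG per 100 bp, median percent of bases repeat-masked and median fold enrichment of the olfactory receptor peaks (right) and the other peaks (left) of each of the 8 libraries, with a line per library coloured by group. The lines for CpG and repeats rise in every library, and those for fold lie between 6.97 and 9.49 on both sides.

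Part of the regions had the same sequence. In a window of 240 bp around the summit, each word of 25 bases was counted in the whole reference, on both strands. The median word of a receptor region occurred 9.25 times, and at 206 of 614 regions (33.6%) the median word was present once only. Of the 89 receptor regions with a peak in all 8 libraries, 12 (13.5%) had such a single-copy window and 40 (44.9%) had a median of 100 copies or more. Of the 8812 other regions with a peak in all 8 libraries, 55.1% had a single-copy window and 22.6% had 100 copies or more. How reads that match several copies were placed is not given in the sources used here, and its part in these peaks was not tested.

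The strongest regions showed this most plainly. Of the 10 highest median folds among regions in all 8 libraries, 5 belonged to a set of 13 regions on 8 chromosomes whose windows shared at least 50 of these 25-base words with another member. Their median word occurred 410 times in the genome, and the median folds of the 13 ran from 7.10 to 40.6. The first 3 of them by fold are shown in the same orientation, with CpG in capitals: the region named Olfr1507 (chr14:52868973-52869212, plus strand), that named Olfr385 (chr11:73562558-73562797, minus strand) and that named Olfr1361 (chr13:21650659-21650898, plus strand). Olfr385 matched the first in 232 of 240 bases, and Olfr1361 matched it without a difference over the first 138 bases, after which the sequences fell out of register. Counting the first region itself, 6 of the 13 matched in at least 230 bases.
Olfr1507: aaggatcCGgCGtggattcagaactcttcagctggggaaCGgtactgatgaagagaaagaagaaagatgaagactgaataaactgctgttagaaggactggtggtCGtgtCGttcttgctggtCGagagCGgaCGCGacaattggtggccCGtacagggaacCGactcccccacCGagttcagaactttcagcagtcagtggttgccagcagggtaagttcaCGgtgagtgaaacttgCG
Olfr385: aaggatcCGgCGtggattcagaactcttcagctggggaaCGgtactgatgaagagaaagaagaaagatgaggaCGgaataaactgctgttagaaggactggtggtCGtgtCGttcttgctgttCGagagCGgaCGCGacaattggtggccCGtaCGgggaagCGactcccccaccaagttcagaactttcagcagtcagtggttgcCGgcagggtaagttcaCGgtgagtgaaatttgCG
Olfr1361: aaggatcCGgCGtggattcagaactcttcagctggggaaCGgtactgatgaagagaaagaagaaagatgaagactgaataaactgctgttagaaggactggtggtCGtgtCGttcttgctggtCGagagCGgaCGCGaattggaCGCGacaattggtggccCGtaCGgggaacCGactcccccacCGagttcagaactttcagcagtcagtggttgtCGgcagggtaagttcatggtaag

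The region named Olfr1507 had the highest median fold of all receptor regions in 8 libraries, and lies between T cell receptor segments (chr14:52868435-52869562, nearest GENCODE gene Trav15d-1-dv6d-1). Its fold was 30.7 and 31.2 in Control, 35.8 and 19.1 in Ethanol, 102 and 137 in Stress, and 45.5 and 50.1 in Ethanol + stress. Both Stress libraries were above all others, and both Ethanol + stress libraries were above the remaining 4. All 4 separated libraries were therefore above all 4 unseparated ones, a region picked out here after its values were seen and given no test. Of the 10 regions of the set found in all 8 libraries, this was the only one with that order, and both Stress libraries were above all others at 3 (those named Olfr1507, Olfr330 and Olfr1532-ps1). How often such orders occur among all regions found in all 8 libraries was not counted, so they have no background to be read against. The second Stress library had the highest fold at 46 of the 89 receptor regions with a peak in all 8 libraries. At Olfr330 the Stress folds were 40.5 and 50.4 and the others 18.05 to 34.4. At Olfr1361 they were 42.3 and 56.3, with 47.1 in the first Ethanol library between them. The region named Olfr385, with folds of 27.0 and 31.0 in Control, 45.8 and 25.2 in Ethanol, 42.7 and 49.6 in Stress, and 38.6 and 23.4 in Ethanol + stress, overlapped between Control and every group but Stress. The region named Olfr487 was at 24.4 and 21.7 in Control, 26.5 and 12.2 in Ethanol, 25.03 and 28.6 in Stress, and 40.8 and 37.1 in Ethanol + stress, so there the Ethanol + stress libraries were the high ones.

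Windows of 3 further regions are printed to show the range of the intergenic regions, again with CpG in capitals and on the plus strand. The region named Olfr161 (chr16:3360038-3360277, median fold 31.2, 8 libraries) is repeat-masked throughout and held 18 CpG. The region 10.4 kb downstream of the start of Olfr670, a class I receptor (chr7:104950252-104950491, median fold 12.4, 8 libraries), held 15 CpG and 3.75% masked bases. The region beside Olfr325 (chr11:58582494-58582733, median fold 13.3, 8 libraries) held 3 CpG in a stretch rich in TG.
Olfr161: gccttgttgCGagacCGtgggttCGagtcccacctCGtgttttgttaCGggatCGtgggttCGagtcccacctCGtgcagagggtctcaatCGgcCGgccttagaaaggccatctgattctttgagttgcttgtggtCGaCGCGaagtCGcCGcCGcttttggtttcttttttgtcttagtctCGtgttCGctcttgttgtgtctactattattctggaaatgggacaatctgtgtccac
Olfr670: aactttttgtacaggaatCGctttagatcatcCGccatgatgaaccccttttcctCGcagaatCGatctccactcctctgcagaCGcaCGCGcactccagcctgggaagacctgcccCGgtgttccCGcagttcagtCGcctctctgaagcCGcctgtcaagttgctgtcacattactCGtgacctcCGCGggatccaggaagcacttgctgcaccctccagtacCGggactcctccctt
Olfr325: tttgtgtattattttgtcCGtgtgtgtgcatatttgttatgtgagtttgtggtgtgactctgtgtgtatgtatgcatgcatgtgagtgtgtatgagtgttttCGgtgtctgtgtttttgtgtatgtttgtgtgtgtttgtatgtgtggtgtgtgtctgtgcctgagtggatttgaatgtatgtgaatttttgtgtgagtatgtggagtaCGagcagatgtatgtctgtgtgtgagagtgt

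At Olfr325 the folds were 12.3 and 14.7 in Control, 20.7 and 11.2 in Ethanol, 11.97 and 16.7 in Stress, and 14.3 and 9.28 in Ethanol + stress. All 8 libraries had this peak although the region held only 0.93 CpG per 100 bp, and the groups overlapped. Near the starts of Olfr1388 (17.0), Olfr1033 (12.5) and Olfr761 (10.1, 5 libraries), where the median folds are in parentheses, the regions were at least 94.2% repeat-masked with 4.18 to 5.43 CpG per 100 bp.

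Receptor regions in a single library and in all 8 libraries made up somewhat larger shares than among all regions, which was described and not tested region by region. A single library held 252 of the 614 (41.0%, against 38.7% of all regions), and all 8 libraries held 89 (14.5%, against a background of 9.76%). From single-library regions to those in all 8, the median fold went from 6.54 to 12.6, the median CpG per 100 bp from 1.27 to 3.88 and the masked share from 68.7% to 97.8%. Of the 275 regions with at least 90% masked bases (44.8% of receptor regions, against 14.0% of all regions), 22.5% were in all 8 libraries. Of the 61 with at most 10% masked bases, 8.20% were. By library, 38.4% ± 10.5 of receptor peaks lay in regions found in all 8 against 27.3% ± 8.62 of other peaks, higher in 8 of 8 libraries (exact sign-flip permutation test, adjusted p = 0.0100). Each library has a peak in every such region by definition. The 8 library values therefore largely repeat the counts above, and this p adds no separate evidence.

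Over the 89 regions with a peak in all 8 libraries, the second Stress library had the highest fold at 46 and the first Ethanol library at 26, while the second Ethanol library had the lowest at 42. The median fold over the 89 regions was 11.5 and 10.9 in the Control libraries, 16.9 and 9.11 in Ethanol, 14.2 and 19.6 in Stress, and 14.3 and 12.3 in Ethanol + stress. The other 8812 such regions gave nearly the same order of libraries, with 10.6 in both Control libraries, 14.4 and 8.74 in Ethanol, 11.97 and 15.4 in Stress, and 12.7 and 11.1 in Ethanol + stress. Both Control libraries lay below all Stress and Ethanol + stress libraries, and the Ethanol pair spanned nearly the whole range.

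Clusters of the family held fewer peaks than the rest of the genome. The receptor genes and pseudogenes fell into 65 clusters, with neighbours less than 1 Mb apart, and 45 of them had a region. Inside the cluster spans there were 8.32 ± 2.38 peaks of any name per Mb against 13.8 ± 4.06 outside, lower in 8 of 8 libraries (exact sign-flip permutation test, p = 0.0078), a comparison added after the data were seen. The spans also held less CpG (6.13 per kb, against 8.29 outside) and more masked sequence (45.6%, against 36.3%), and the part of these in the difference was not tested. Of the receptor regions, 491 (80.0%) lay inside a span.

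Among the clusters with at least 9 protein-coding receptors, the density ran from 4.69 to 41.5 regions per Mb. The densest was that on chromosome 15, with 16 regions and 7 of 9 coding receptors named at a peak. The largest cluster of the genome, on chromosome 2 (2-2, 222 coding receptors in 5.07 Mb), had 58 regions, and 44 of its receptors (19.8%) were named. The class I cluster on chromosome 7 (7-5, 126 coding receptors in 2.89 Mb) had 52 regions and 29.4% of its receptors named. Cluster 9-2 on chromosome 9 (35 coding receptors) had 51.4% named and 7 of its 30 regions in all 8 libraries. By chromosome, 7 held 107 regions and 2 held 88.

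**Figure D4:**
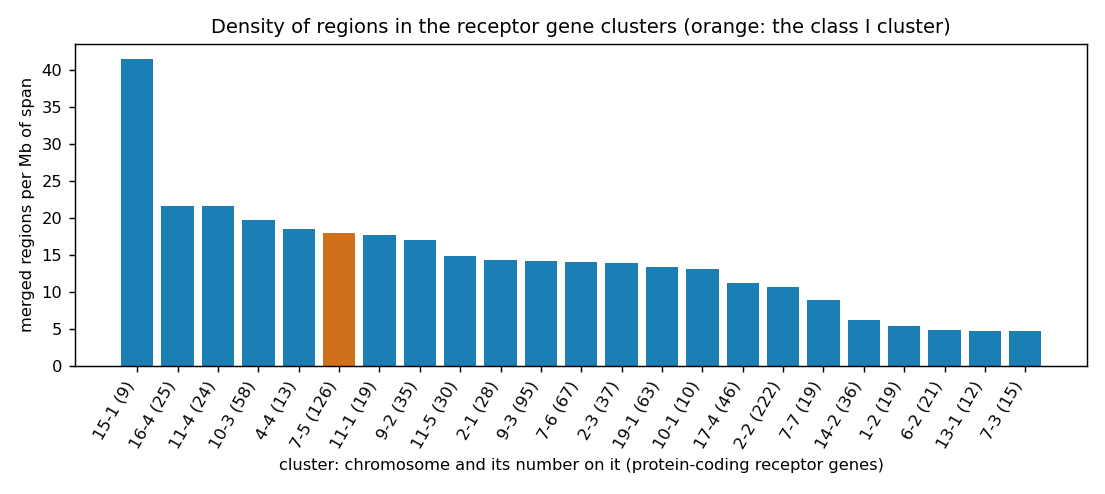
Merged regions per Mb of span for the clusters with at least 9 protein-coding receptor genes, ordered by density and labelled by chromosome, number and gene count. The chromosome 15 cluster stands highest at 41.5 per Mb, and the class I cluster (orange) is at 17.98.

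Receptors of class I were named at peaks less often than those of class II. Of 129 protein-coding class I receptors 39 (30.2%) had a peak in some library, and of 981 class II receptors 326 (33.2%). In a single library the share was 11.7% ± 5.25 for class I and 17.1% ± 3.28 for class II, lower for class I in 8 of 8 libraries (two-sided exact sign-flip permutation test, p = 0.0078, adjusted p = 0.0156 over 2 measures). The median fold was 7.21 ± 0.603 for class I and 8.21 ± 0.740 for class II, lower in 7 of 8 (exact, adjusted p = 0.0156). Over merged regions, where a region counts once, the order was reversed, with medians of 7.31 for class I and 7.09 for class II. Of the class I regions 5.45% were in all 8 libraries, and of the class II regions 15.4%. The part of this in the library values was not tested. The gene share turned to 0.816 percentage points higher in class I when only peaks in the gene or within 2000 bp of its start were counted (exact p = 0.336), and the cause of this change was not tested. In all, 365 of 1110 protein-coding receptors (32.9%) were named at a peak, against 59.2% of all protein-coding RefSeq genes. That background was added after the data were seen, and the difference was not tested.

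The class I regions were 55, of which 3 were in all 8 libraries, near Olfr670, Olfr596 and Olfr503. At Olfr670 the folds were 13.2 and 11.7 in Control, 19.4 and 6.61 in Ethanol, 6.94 and 13.1 in Stress, and 13.7 and 10.3 in Ethanol + stress, with overlap between all groups. At Olfr596, the region in all 8 libraries (chr7:103294583-103295899) was flanked within 2 kb by a region present in both Stress, both Ethanol + stress and the first Ethanol library and by another present in both Control and the first Ethanol library. Olfr635 (7 libraries), Olfr676 and Olfr617 (6 libraries each) followed.

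Of 15 well-studied receptors, 7 were named at a peak, beside 32.9% of all protein-coding receptors. None of the 15 had a peak within its coding sequence in 3 or more libraries. Olfr15 was named at 5 regions, and 2 of them, 17.4 and 33.1 kb upstream, were in all 8 libraries with median folds of 20.5 and 18.2. Olfr544, a class I receptor known from metabolic tissues as well as the nose, had a coding-exon region in 2 libraries, with folds of 6.58 in the first Stress and 5.17 in the first Ethanol + stress library. Olfr16 (MOR23), Olfr1386 and Olfr90 each had a peak in 1 library and Olfr1393 in 2.

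The number of receptor peaks per library was lowest in Control. It was 192 and 162 in Control, 316 and 211 in Ethanol, 272 and 344 in Stress, and 303 and 267 in Ethanol + stress. Every treated library was above both Control libraries. The differences from Control were 86.5 for Ethanol, 131 for Stress and 108 for Ethanol + stress, each with the smallest p that 2 against 2 libraries allow (two-sided exact permutation test, p = 0.333, adjusted p = 0.686 over 24 tests). Separated libraries had 76.2 more than unseparated ones (exact p = 0.114), a difference that turned to −0.25 with an equal number of 22805 peaks taken per library by strength, and ethanol libraries 31.8 more than those without ethanol (exact p = 0.514). The separation difference with ethanol minus that without was −109.5 peaks (exact p = 0.229). The total number of peaks was 24017 and 27655 in Control and 51747 in the second Stress library, where the receptor count was highest. The second Ethanol library had the fewest peaks of all, 22805, with 211 at receptors.

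As a share of a library's peaks, the family differed little between groups. The share was 0.694% and 0.675% in Control, 0.688% and 0.925% in Ethanol, 0.677% and 0.665% in Stress, and 0.702% and 0.738% in Ethanol + stress. The second Ethanol library, which had the fewest peaks of all, was the high one. Ethanol libraries were 0.0857 percentage points above those without ethanol (exact permutation p = 0.0571, adjusted p = 0.686), with the lowest at 0.688% just under the highest Control share. When only peaks whose nearest GENCODE gene was a receptor were counted, the difference was 0.0779 points and passed before adjustment, and without the second Ethanol library it fell to 0.0317. The difference of separated from unseparated libraries was −0.0499 points (exact p = 0.657). The median fold of receptor peaks ran from 7.32 to 9.49 over the libraries, and the range of Control overlapped that of each treated group.

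**Figure D5:**
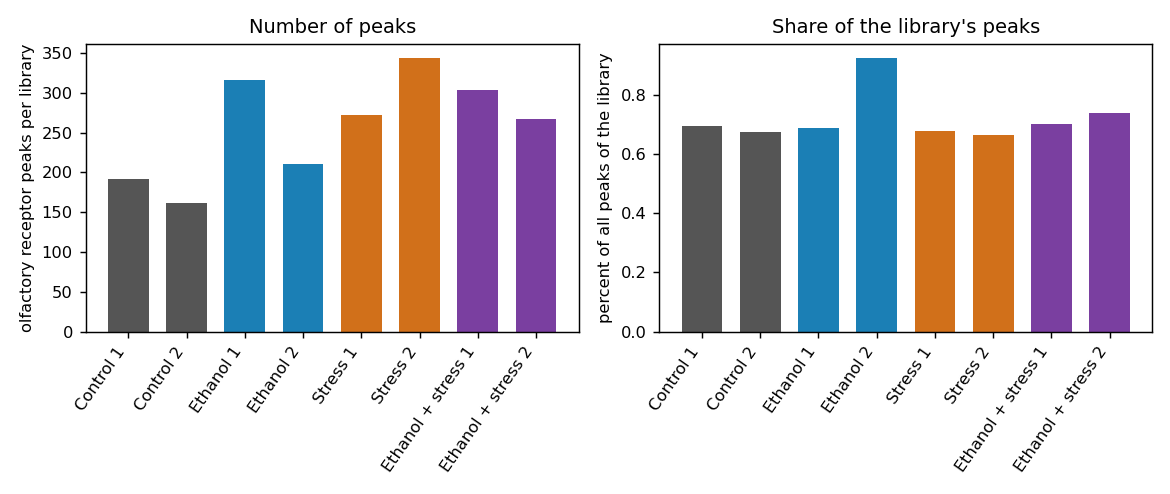
Number of olfactory receptor peaks (left) and their percent of all peaks (right) in each of the 8 libraries, coloured by group. Control libraries have the lowest counts (192 and 162), and the second Ethanol library has the highest share (0.925%).

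Region by region, a peak in both treated and in neither Control library was found at 28 receptor regions for Ethanol (4.56% of 614, against a background of 2.82% of all regions), 63 for Stress (10.3%, against 8.93%) and 32 for Ethanol + stress (5.21%, against 5.54%). The reverse, a peak in both Control and neither treated library, was found at 1, 2 and 1 regions (0.163%, 0.326% and 0.163%, against 0.93%, 0.847% and 0.656%). The 3 comparisons share the Control libraries, and those had fewer peaks. With the strongest 22805 peaks of each library, the gained and lost regions were 8 and 7 for Ethanol, 22 and 7 for Stress and 9 and 5 for Ethanol + stress. The share of all regions called at this setting is not given here, so these counts have no background to be read against. An exact permutation test of 2 against 2 libraries cannot go below p = 0.333, and no region was tested alone.

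Among the regions of this kind with the highest ranks by fold, those named Olfr401 and Olfr1330 and that named Olfr1507 at chr14:52764409-52765233, among T cell receptor segments, had a peak in all 6 treated libraries and neither Control. At the last of these the folds were 6.04 to 12.4. At Olfr401 (8.94 kb downstream of the start, 100% masked) the folds were 12.6 and 7.85 in Ethanol, 7.17 and 15.6 in Stress, and 5.79 and 5.44 in Ethanol + stress. At Olfr1330 they were 11.8 and 7.45, 6.08 and 10.8, and 11.99 and 7.97 in the same order. How many receptor regions, or regions of any name, had a peak in all 6 treated libraries and neither Control was not counted. These named regions therefore have no background to be read against. At Olfr215 a peak over the coding exon was present in both Ethanol + stress libraries (7.82 and 8.89) and in the first Stress library (5.63). The region near Olfr418-ps1 was missing from both Ethanol libraries only, with folds of 7.89 to 14.5 in the other 6. The median word of the window, counted as above, occurred 1003 times in the reference at Olfr401 and 48 times at Olfr1330. At the Olfr1507 region named here it occurred 1545.5 times, at Olfr418-ps1 3442 times and at Olfr215 1 time. The part of repeated copies in the presence or absence of these peaks was not tested.

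Separated and unseparated libraries were divided without exception by 3 receptor regions, all present in the 4 separated ones (0.489%, against a background of 0.406%). They lay 35.4 kb upstream of Olfr459, 6.78 kb downstream of the start of Olfr554 and 8.37 kb downstream of that of Olfr368. The median word of the window, counted as above, occurred 3625 times in the reference at Olfr459, 1214.5 times at Olfr368 and 1 time at Olfr554. At Olfr554 the folds were 10.2 and 12.9 in Stress and 6.22 and 6.61 in Ethanol + stress, and at the other pair 4.69 to 8.64. Ethanol exposure was divided by 3 regions, all present in the 4 ethanol libraries (0.489%, against a background of 0.0834%), near Olfr282 (4.68 to 6.87), Olfr315 (3.66 to 5.18) and the T cell receptor segment Trav7d-3 named Olfr1507 (3.24 to 7.51). The lowest of these folds were not far above 3.03, the lowest fold of any receptor peak. The Trav7d-3 region lay 242 kb upstream of Olfr1507. Its median word occurred 26 times in the reference, and those of the Olfr282 and Olfr315 regions occurred 1 time each. The part of repeated copies in the regions that divided either exposure was not tested. With an equal number of strongest peaks per library, fewer regions divided either exposure, as given below. At Olfr554 the Stress folds were above the median of receptor peaks in those libraries (8.35 and 9.49). No receptor region was present in all 4 unseparated and no separated libraries (background 0.00877%), or in all 4 libraries without ethanol and none with it (background 0.0417%).

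Other genes that olfactory neurons use were also named at peaks. Of 25 genes of odorant signalling and receptor choice, 21 were named at a peak, 12 of them in all 8 libraries, with 263 regions together. Of 21900 protein-coding RefSeq genes 59.2% were named at a peak and 25.4% in all 8 libraries, a background added after the data were seen, and the list was not tested against it. Ncam2, an adhesion molecule of olfactory axons, was named at 46 regions, Ebf1, a transcription factor of these neurons, at 44, and Emx2, another, at 32. A peak within 2000 bp of the start was found at 5 of the 25 genes, beside 9.66% of the protein-coding RefSeq genes, and this was not tested either. At Ano2, the chloride channel of the olfactory cilium, it was present in all 8 libraries, at Cnga4, a subunit of the cyclic nucleotide-gated channel, and Omp, olfactory marker protein, in 5 libraries each, and at Adcy3 and Gnal, the adenylyl cyclase and G protein of the cascade, in 2 and 1. No peak carried the names of Cnga2, Gnb1, Kdm1a or Cbx5. For the vomeronasal receptors, the pheromone receptors of a separate organ, there were 519 merged regions, and for the trace amine receptors 3.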

How the data were processed

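Methylated DNA of mouse hippocampus was captured with an anti-5-methylcytosine antibody in 8 libraries, with 1 input library per group, which has no peak list here. According to the labels and the study's methods, the authors aligned reads to mm10 with HISAT2 2.1.0 and ran MACS on each library, with its group's input as background. Each peak was annotated to the nearest RefSeq gene. The deposited values used were the fold enrichment (a ratio to local background), the −log10 q of each peak and the peak positions. The deposited summit tag count, a score, was described in the table of units and entered no test. No read counts were used, so the depth per library is unknown and the number of libraries limits the precision.

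Peaks were taken by gene name, duplicate rows of 1 peak were joined (2084 rows, 2067 peaks, 9 with more than 1 receptor name), and overlapping peaks were merged across libraries (pandas 2.3.3). Of 371 receptor names 369 matched RefSeq by symbol or synonym. Class was set by the MOR family number in the synonyms (below 100 is class I) for 1281 genes and by position for 147. CpG, G+C and lower-case (repeat-masked) bases were read from the RefSeq GRCm38.p6 sequence, and gene features from GENCODE M21, with the summit deciding the feature. Copies of 25-base words were counted over the primary chromosomes.

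Comparisons between groups used exact permutation tests, two-sided (70 arrangements for 4 against 4 libraries) and, for values paired within a library, exact sign-flip tests (256 arrangements), in numpy 2.4.6, with Benjamini-Hochberg adjustment. For the separation difference with ethanol minus without, libraries were exchanged between Control with Ethanol + stress and Ethanol with Stress. That p is exact only if neither exposure has an effect of its own. Tests were checked on simulated data. Regions named in the text were chosen by rank: the 10 highest median folds among regions in all 8 libraries, the 8 highest within 2000 bp of the start in 4 or more, up to 4 for each treatment and direction and for separation and ethanol, 6 of class I, the 2 widest, and a fixed list of 15 well-studied receptors. The coding sequences, the sequence sets, Olfr73 and Olfr94, and the libraries singled out were named after their values were seen. The members, lists and tests were chosen with earlier results of these data known. Alternatives were an equal number of strongest peaks per library (22805), the upper 50% by fold, a start within 20 kb, an overlap of at least 50%, a replicate block, each library left out, and, added after seeing the data, only peaks whose nearest GENCODE gene is a receptor.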

Additional observations from a re-analysis of the deposited data

Results flagged for a closer look

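The share of peaks at olfactory receptor genes was 0.925% in the second Ethanol library, far from the other 3 unseparated libraries (0.675% to 0.694%) by Dixon's criterion. This library also had the fewest peaks of the 8, 22805, and the lowest fold at 42 of the 89 receptor regions found in all libraries, and the part of either in the share was not tested. The median fold of receptor peaks over that of other peaks was 1 in the second Ethanol + stress library, below the other 3 ethanol libraries (1.05 each). Of 27 groups of values examined, chance would flag about 1 in 20. The difference that separation made to the same ratio, with ethanol minus without, was −0.128 (exact permutation p = 0.0286, the smallest that 70 arrangements give, adjusted p = 0.686 over 24 tests), with library values of 1 and 1.04 in Control, 1.05 and 1.05 in Ethanol, 1.08 and 1.15 in Stress, and 1.05 and 1 in Ethanol + stress. This difference became 0.0489 with the upper 50% of peaks, −0.0375 with an equal number of strongest peaks and −0.0536 with a receptor nearest in GENCODE, and its call was lost with the replicate block (exact p = 0.0556). The permutation p of this contrast assumes that neither exposure has an effect of its own.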

How the results depend on the processing

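The higher CpG, repeat-masked share, G+C, width and −log10 q of receptor peaks, their share in regions found in all 8 libraries and the class difference in median fold kept their direction and their call in every alternative computed for them, and so did the lower peak density in clusters. Merged regions were not among these alternatives, and over them the class order of median fold was reversed (7.31 for class I, 7.09 for class II). With an equal number of strongest peaks, separated minus unseparated peaks became −0.25, the Stress minus Control share 0.0965, the median fold differences 1.01 (Ethanol) and 1.55 (Ethanol + stress), the ethanol difference of the fold ratio 0.00772, its interaction −0.0375, and the coding-exon difference 1.75. Gained regions were then 8 (Ethanol), 22 (Stress) and 9 (Ethanol + stress), lost ones 7, 7 and 5, and 1 was specific to separation and 0 to ethanol. With the upper 50% of peaks, the Stress share difference was 0.0581, the share interaction −0.195 (passing before adjustment), the fold ratio differences −0.0466 (Ethanol), 0.0588 (separation, passing) and 0.0489 (interaction), the coding-exon difference 1.09, gained Ethanol regions 17, lost 0, 1 and 2, ethanol-specific 1, and shared regions 55. With a start within 20 kb, the ethanol share difference was 0.0667 (passing), the fold ratio differences −0.0116 (Ethanol + stress) and −0.115 (interaction), and lost Stress regions 1. With a receptor nearest in GENCODE, the values were 0.0779 for the ethanol share (passing), −0.0213 for the separation fold, −0.0118, −0.0399, −0.00129 and −0.0536 for the fold ratio (Ethanol, Ethanol + stress, separation, interaction), and 1 for lost Stress regions. Against other peaks within 20 kb of a start the differences were 0.0557 (within 2000 bp) and −3.97 (coding exon) percentage points, and the class share was 0.816 in the gene or within 2000 bp. The cause of these changes was not tested. In every alternative, the counts of gained, lost and shared regions stand without the share of all regions.

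Same-numbered libraries did not deviate together (correlations −0.023 to 0.076), and the replicate block left every call as it was except the fold ratio interaction (−0.128, exact p = 0.0556). Leaving out each library gave 56.8 to 108 for separated minus unseparated peaks (108 without the first Ethanol library, passing before adjustment), −0.0735 to 0.0101 for the separation share, 0.0317 to 0.111 for the ethanol share, −0.191 to 0.0463 for the share interaction, −0.782 to 0.438 and −0.128 to 0.529 for the median fold (Ethanol, separation), −0.0181 to 0.0285 for the Ethanol + stress fold ratio, −0.164 to −0.0921 for its interaction, and 0.293 to 0.474 for receptor minus other fold. The negative separation share turned without the second Ethanol library. Gained regions then ran from 28 to 135 (Ethanol), 62 to 167 (Stress) and 32 to 118 (Ethanol + stress), lost ones from 1 to 31, 2 to 27 and 1 to 28, those specific to separation from 3 to 10 or lost 0 to 1, and to ethanol from 3 to 6 or lost 0 to 1, where a side with fewer libraries meets the criterion more easily.

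Precision is limited by 2 libraries per group, an input library shared within each group, unknown read depth and repeated sequence at many regions.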
